A study of Mus musculus with 6 samples.

Results

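Integrins are the heterodimeric receptors, each of 1 alpha and 1 beta chain, by which cells hold the extracellular matrix or other cells, and focal adhesion proteins tie their cytoplasmic tails to actin. The 37 genes described here are 18 alpha chains, 8 beta chains and 11 core focal adhesion proteins of the mouse. They are picked out by gene symbol, and they occupied 38 of the 53715 rows of the gene table, because the symbol Itgam stood on 2 rows. The 7 leukocyte integrins (Itgal, Itgam, Itgax, Itgad, Itgae, Itgb2 and Itgb7) were kept apart from the other 19 integrins. All 38 rows passed the filter on low counts.

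RNA was sequenced from cells sorted by the gate CD146+CD45-CD31-, which the study calls pericytes, from the gastrocnemius-soleus muscles of wild-type male C57BL/6J mice aged 14 weeks. The 3 stimulated mice received electrical stimulation of the crural muscles, 20 eccentric and 20 concentric contractions (40 in all) within about 10 minutes, and were killed 3 hours afterwards. The 3 sham mice carried the same genotype and passed the same sort without stimulation. Each group is stated to hold 3 mice, so that a library stands for 1 animal.

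Integrin signalling runs both ways. Talin and kindlin binding to the beta tail switches the receptor to its high-affinity state, and bound receptors recruit focal adhesion kinase, paxillin, vinculin and the ILK-PINCH-parvin complex. Beta 1 pairs with most alpha chains and serves adhesion to collagen, laminin and fibronectin, which in a capillary holds endothelial cells and pericytes to their shared basement membrane. The beta 2 and beta 7 integrins are largely confined to leukocytes, which use them to stop on and cross the vessel wall.

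The libraries went against the gate in part and 1 of them stood apart. Libraries held 17520338 to 23709220 estimated reads. Ptprc, which encodes the excluded antigen CD45, had 989 to 1040 CPM (estimated counts scaled to a common library size) in stimulated and 194 to 863 CPM in sham libraries. Pecam1, which encodes the excluded antigen CD31, had 384 to 577 CPM in stimulated and 524 to 1280 CPM in sham libraries. Mcam, which encodes the positive antigen CD146, had 24.3 to 54.0 CPM in stimulated and 39.1 to 105 CPM in sham libraries. These values were below both excluded antigens in every library, in CPM that is not corrected for transcript length. The summed level of 12 endothelial markers was 2495 to 3863 CPM after stimulation against 4088 to 10270 CPM in sham, with 12 of 12 markers below 0 in log2 fold change. The summed level of 9 lymphocyte markers was 917 to 1134 CPM after stimulation against 129 to 1168 CPM in sham, with 9 of 9 markers above 0. Sham replicate 2 held both extremes, the highest endothelial and the lowest lymphocyte sum. The 9 pericyte markers summed to 155 to 374 CPM after stimulation against 313 to 667 CPM in sham, and none of the markers of these lists was at 0 in all libraries. These sums stand beside each adhesion gene value that follows, and their part in it was not tested. In bulk libraries fewer cells of a type and less RNA per cell cannot be told apart.

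Promoters are shown for 4 integrins that lay on opposite sides in sham replicate 2, the library without which many of the differences that follow were smaller. In CPM, Itga1 and Itgb1 were highest in that library, whereas Itga4 and Itgb7 were lowest there. The windows run from 250 bases before to 50 bases after the start of the gene, 5′ to 3′ on the gene's strand, from RefSeq on GRCm38.p6. They are chr13:115101915-115102214 on the minus strand for Itga1, chr8:128685404-128685703 on the plus strand for Itgb1, chr2:79255176-79255475 on the plus strand for Itga4 and chr15:102231886-102232185 on the minus strand for Itgb7. Capitals mark matches on either strand to the GC box GGGCGG, the PU.1-type ETS motif GAGGAA, the AP-1 motif TGANTCA, the TEAD motif GGAATG or the CArG box.

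Itga1: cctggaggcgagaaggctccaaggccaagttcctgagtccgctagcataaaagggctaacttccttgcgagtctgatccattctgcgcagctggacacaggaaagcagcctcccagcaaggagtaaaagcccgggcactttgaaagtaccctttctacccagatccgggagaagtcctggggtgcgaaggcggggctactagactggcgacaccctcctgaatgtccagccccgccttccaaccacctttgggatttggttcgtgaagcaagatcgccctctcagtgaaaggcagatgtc

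Itgb1: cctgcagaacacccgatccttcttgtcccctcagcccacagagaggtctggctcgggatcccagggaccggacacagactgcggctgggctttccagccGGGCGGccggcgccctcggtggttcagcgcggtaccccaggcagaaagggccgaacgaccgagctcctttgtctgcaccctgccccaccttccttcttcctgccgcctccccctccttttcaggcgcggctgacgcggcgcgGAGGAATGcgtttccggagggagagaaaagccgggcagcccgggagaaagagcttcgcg

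Itga4: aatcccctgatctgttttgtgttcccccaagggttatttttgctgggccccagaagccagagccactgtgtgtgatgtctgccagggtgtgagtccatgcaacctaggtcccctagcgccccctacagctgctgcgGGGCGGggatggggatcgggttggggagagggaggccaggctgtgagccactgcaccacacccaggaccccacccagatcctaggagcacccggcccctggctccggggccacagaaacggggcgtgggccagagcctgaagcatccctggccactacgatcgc

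Itgb7: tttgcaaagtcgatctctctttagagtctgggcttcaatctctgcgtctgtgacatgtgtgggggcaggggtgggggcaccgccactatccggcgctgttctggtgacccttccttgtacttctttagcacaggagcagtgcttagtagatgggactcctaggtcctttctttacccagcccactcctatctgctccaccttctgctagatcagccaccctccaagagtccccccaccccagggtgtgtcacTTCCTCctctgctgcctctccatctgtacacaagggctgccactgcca

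The Itga1 window held none of these motifs. The Itgb1 window held 1 GC box and 1 GAGGAA, the last overlapping a GGAATG. The Itga4 window held 1 GC box and the Itgb7 window 1 GAGGAA on the opposite strand. RefSeq windows were matched by symbol for 26 of the 37 genes, 31 windows in all. The GC box was in 48.4% of these windows against 35.7% of all 32851 windows of the same length, and GAGGAA in 35.5% against 28.3%. The AP-1 motif was in 12.9% against 7.81%, GGAATG in 9.68% against 14.7%, and the CArG box in 6.45% against 1.63%, where the windows with a CArG box were those of Vcl and Itgb6. These matches describe the letters of the windows only.

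Per length on long coding transcripts, Itgb1 and Itga6, the chains of a laminin receptor, had the highest mean levels among these genes in both groups. Levels of different genes are given in TPM, which corrects for transcript length. TPM was summed over protein-coding transcripts of at least 1000 bases, because short transcripts dominated the plain sums. This measure was chosen after seeing the data and leaves out unequal parts of the genes. It kept 71.1 to 78.5% of Itga6 reads but 42.8 to 66.1% of Ptk2 reads. Over all transcripts the mean of the 6 libraries was 43.2 TPM for Tln1, 10.6 for Itgb1, 6.76 for Tns1 and 5.40 for Itga6. Itgb1 had 3.02, 2.43 and 4.47 TPM in stimulated and 5.41, 12.7 and 3.79 TPM in sham libraries, the highest of all 38 rows in each of the 6 libraries. Itga6, the laminin-binding alpha chain, had 1.37, 1.26 and 2.00 TPM in stimulated and 3.16, 7.97 and 2.16 TPM in sham libraries. Itga1, an alpha chain for collagen, had 0.615, 0.458 and 0.854 TPM in stimulated and 1.62, 4.15 and 1.07 TPM in sham libraries. Among the integrins of stimulated libraries the mean was 3.31 TPM for Itgb1, 1.54 for Itga6, 1.15 for Itga4, 1.05 for Itgb2 and 0.642 for Itga1. In sham libraries it was 7.30 TPM for Itgb1, 4.43 for Itga6, 2.28 for Itga1, 1.26 for Itga4 and 0.690 for Itgb2, with Itga1 drawn up by sham replicate 2. The place of Itga1 thus differed between the groups, and Itgb2 exceeded it in each stimulated library. The ranges of Itga1 and Itga4 overlapped. Itga4, the alpha chain that binds VCAM1 and fibronectin, had more TPM than Itga1 in the 3 stimulated libraries and sham replicate 1, and less in sham replicates 2 and 3. Within each of the 6 libraries Itgb1 exceeded Itga6, and Itga6 exceeded Itga1. The integrins lowest per length, beside a second Itgam row, were Itgad at 0.00544, Itga10 at 0.0222, Itga8 at 0.0260 and Itgb8 at 0.0260 TPM.

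**Figure D1:**
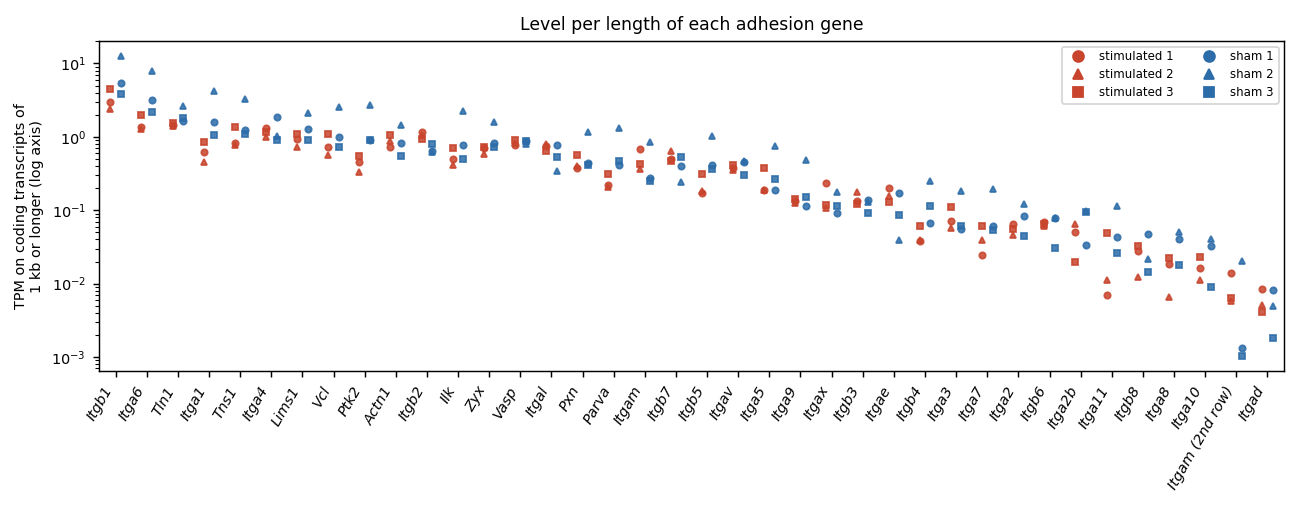
Level of each of the 38 rows in TPM on protein-coding transcripts of at least 1000 bases (log axis), ordered by the mean over 6 libraries, with stimulated libraries in red left of sham libraries in blue and 1 symbol for each replicate number. Itgb1 leads at a mean of 5.30 TPM, and the triangle of sham replicate 2 lies above the other sham libraries for most genes on the left.

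Over all 6 libraries, among focal adhesion proteins Tln1, which encodes the integrin-activating talin, had the highest mean at 1.75 TPM on long coding transcripts, followed by Tns1 (tensin 1) at 1.43, Lims1 (PINCH1) at 1.18, Vcl (vinculin) at 1.12 and Ptk2 (focal adhesion kinase) at 0.979 TPM. Over all transcripts the Tln1 mean was 43.2 TPM. Its 8393-base coding transcript took 87.9 to 89.8% of the gene's reads but 3.75 to 4.63% of its TPM, and a 283-base processed transcript with 481 to 724 reads took 82.3 to 86.5% of the TPM. The deposited gene values follow TPM, so a gene of this kind is weighted by its short transcript. Fold changes from summed transcript reads differ to some degree for most genes. They are given below for the 4 rows where the log2 values differ by over 0.5 and for some others.

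Between cells sorted from the muscles of stimulated and sham mice, no integrin or focal adhesion gene passed the test. The numbers that follow are levels and differences, not calls. The quasi-likelihood test of edgeR called 0 of the 38 rows at a Benjamini-Hochberg adjusted p of 0.05, and 0% of all 26559 genes tested in either direction. DESeq2, which called 0.373% of genes higher and 0.771% lower, called 0 of the 36 rows to which it gave an adjusted p (none for Itgad and the second Itgam row), and limma voom called 0 of 38. At an unadjusted p under 0.05 the 38 rows held 1 higher gene, Itgb3, or 2.63% against 2.64% of all genes. They held 5 lower genes, Itga1, Itga6, Itgb4, Ptk2 and Parva, or 13.2% against 4.41% of all genes. All 5 had their highest value of the 6 libraries in sham replicate 2, and Itgb3 had its lowest value there. The values of stimulated and sham libraries did not overlap in 4 rows that were higher (Itga4, Itgb3, Itgal and Itgae), against a background of 6.16% of genes, and in 2 that were lower (Itga1 and Parva), against 5.88%.

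**Figure D2:**
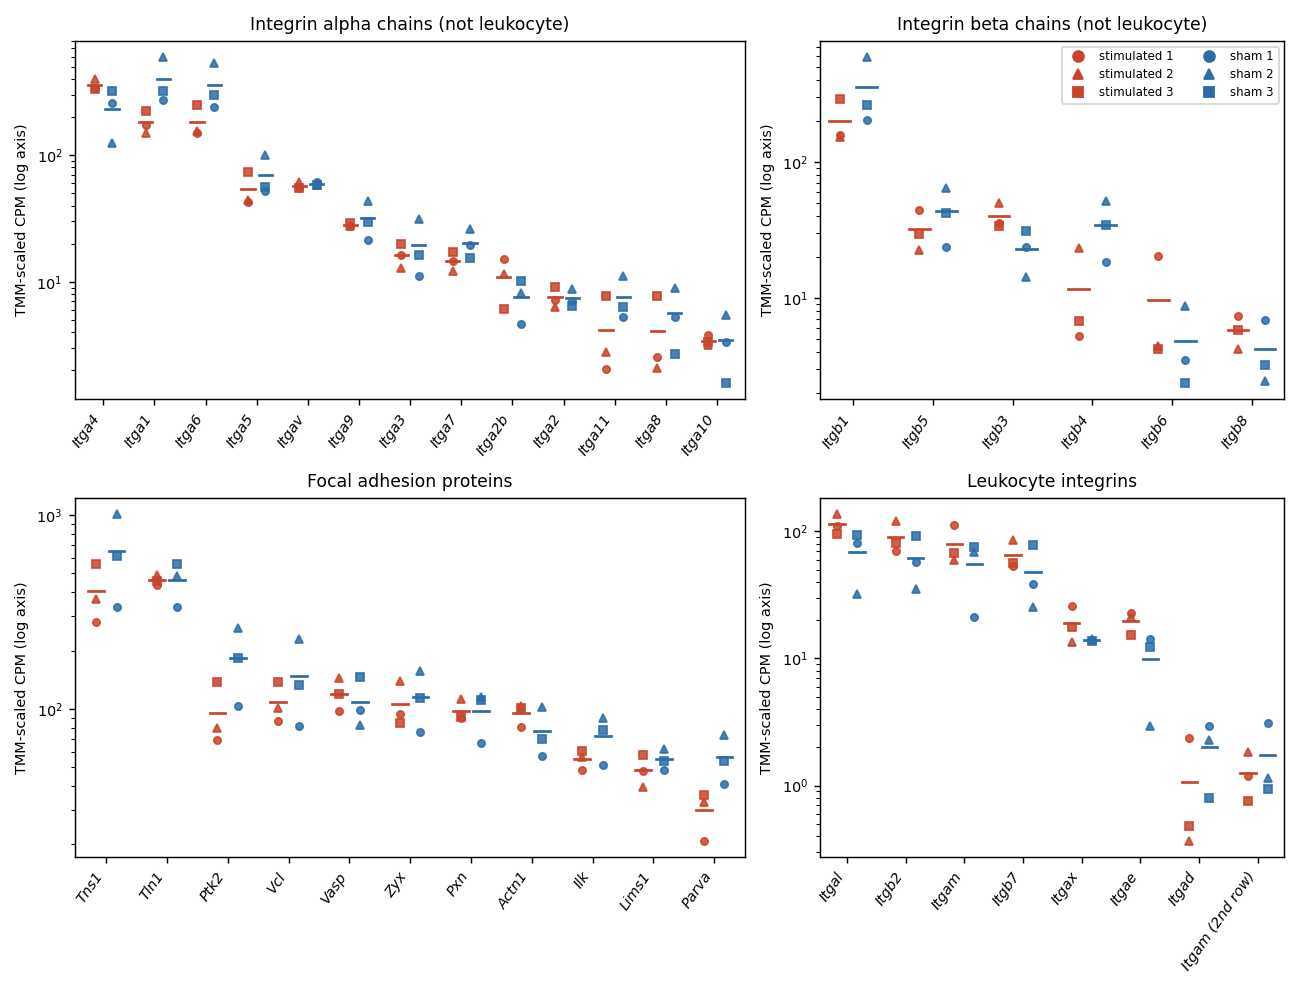
TMM-scaled CPM (log axis) of every row by library, in 4 panels for alpha chains, focal adhesion proteins, beta chains and leukocyte integrins, with stimulated libraries in red left of sham libraries in blue, 1 symbol for each replicate number and a line at each group's mean. Itga1 and Parva have every stimulated value below every sham value, Itga4, Itgb3, Itgal and Itgae the opposite, and all other rows overlap.

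Of the alpha chains for collagen, Itga1 had lower values in every stimulated library and the others overlapped. Itga1 (chromosome 13, 114953096 to 115101964, GRCm38) had 174, 150.1 and 223 CPM in stimulated and 272, 595 and 321 CPM in sham libraries. The groups did not overlap, and sham replicate 2 lay far above the other sham libraries. The log2 fold change was -1.12 (SE 0.35, edgeR adjusted p = 0.589), and -0.70 without sham replicate 2. Itga2, the other collagen-binding chain of this chromosome, lies close beside Itga1 on the same strand (chromosome 13, 114833081 to 114932100). Its values overlapped, with 6.35 to 9.06 CPM in stimulated and 6.42 to 8.83 CPM in sham libraries and a log2 fold change of 0.03 (SE 0.29). The collagen receptors Itga10 and Itga11 were low, at 3.15 to 3.79 and 2.03 to 7.71 CPM in stimulated and 1.59 to 5.45 and 5.30 to 11.1 CPM in sham libraries. Their log2 fold changes were -0.01 (SE 0.45) for Itga10, 0.50 without sham replicate 2, and -0.84 (SE 0.52) for Itga11, -0.45 without it.

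Itga6 (chromosome 2, 71745616 to 71858416) had 148, 154 and 248 CPM in stimulated and 241, 531 and 301 CPM in sham libraries. Stimulated replicate 3 reached above sham replicate 1, so the groups overlapped by that pair. Stimulated over sham, Itga6 had a log2 fold change of -0.96 (SE 0.37, edgeR adjusted p = 0.657), and -0.56 without sham replicate 2. Itgb4, which pairs with alpha 6 in the laminin receptor of hemidesmosomes, had 5.27, 23.2 and 6.79 CPM in stimulated and 18.3, 51.5 and 34.4 CPM in sham libraries. Its log2 fold change of -1.56 (SE 0.59, edgeR adjusted p = 0.647) was the lowest of all 38 rows from the gene table. It was -1.16 without sham replicate 2 and -1.21 from summed transcript reads, where Itga1 was lower at -1.24. A 375-base Itgb4 transcript took 54.0 to 62.4% of the gene's TPM in sham libraries on 11 to 24 reads. It took 76.7% in stimulated replicate 2 on 18 reads and had 0 reads in stimulated replicates 1 and 3. The other laminin receptors lay closer to 0. Itga3 had a log2 fold change of -0.27 (SE 0.39), which was 0.25 without sham replicate 2, and Itga7, the alpha chain of muscle fibres, had -0.48 (SE 0.28), which was -0.24 without it.

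Splicing near the 3′ end of Itga6 is known to give a pair of alternative cytoplasmic tails, and the deposited transcripts allow them to be set side by side. The transcript ENSMUST00000028522 holds a 130-base exon, number 25 of 26 (chromosome 2, 71853534 to 71853663), that ENSMUST00000112101 skips. The pair also differs at its start, where ENSMUST00000112101 has exons of 69 and 237 bases and ENSMUST00000028522 a single exon of 343 bases. The split of reads between them therefore does not measure the 130-base exon alone, and other Itga6 transcripts are left out of it. Of the reads on both, the transcript without this exon took 37.5, 45.3 and 41.6% in stimulated and 35.7, 42.3 and 36.5% in sham libraries. The means were 41.5 ± 3.88% and 38.1 ± 3.59% (SD, n = 3 each), and the groups overlapped. Across all genes, a test of transcript usage (limma diffSplice, Simes method) called 0.0175% of 11445 genes. It could be run for 34 of the 38 rows and called 0 of them, with 0 at an unadjusted p under 0.05, where 5.45% of all genes stood. The lowest p was 0.0816, for Tns1.

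Itgb1 (chromosome 8, 128685654 to 128733200), the shared partner of the chains above, had 159, 154 and 293 CPM in stimulated and 206, 594 and 264 CPM in sham libraries. Stimulated replicate 3 exceeded sham replicates 1 and 3, and sham replicate 2 lay far above the other 5 libraries. Itgb1 had a log2 fold change of -0.81 (SE 0.44, edgeR adjusted p = 0.793), and -0.21 without sham replicate 2. The Itgb1 partners for fibronectin and tenascin differed less. Itga5, the fibronectin receptor, had 42.8 to 74.2 CPM in stimulated and 52.1 to 100.3 CPM in sham libraries and a log2 fold change of -0.37 (SE 0.34), which was -0.00 without sham replicate 2. Itga9 had -0.18 (SE 0.29) and Itga8, a chain of mural cells and fibroblasts, -0.45 (SE 0.59), and without that library 0.13 and 0.07.

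In CPM, Itga4 (chromosome 2, 79255426 to 79333123) ran the other way. It had 340, 400.5 and 331 CPM in stimulated and 257, 125 and 318 CPM in sham libraries, with every stimulated value above every sham value. The gap between stimulated replicate 3 and sham replicate 3 was small. Itga4 had a log2 fold change of 0.62 (SE 0.35, edgeR adjusted p = 0.809), 0.32 without sham replicate 2 and 0.39 from summed transcript reads. In TPM on coding transcripts of at least 1000 bases the groups overlapped, and sham replicate 1 was highest at 1.86. The means there were 1.15 TPM in stimulated and 1.26 TPM in sham libraries. Alpha 4 pairs with beta 1 or beta 7 and is expressed by many leukocytes, although the gene list used here places it with the non-leukocyte chains. Its CPM was lowest of the 6 libraries in sham replicate 2, as was that of Itgb7, Itgb2, Itgal and Itgae.

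The vitronectin and latent TGF-beta receptors, built on alpha v, did not share 1 direction. Itgav itself had 54.9, 61.9 and 55.1 CPM in stimulated and 61.3, 57.7 and 58.4 CPM in sham libraries. The values of the 2 groups were intermingled, and the log2 fold change was -0.04 (SE 0.21). Itgb3 (chromosome 11, 104608000 to 104670476), which pairs with alpha v or with the platelet chain alpha IIb, had 36.0, 49.7 and 34.1 CPM in stimulated and 23.6, 14.4 and 30.9 CPM in sham libraries. Every stimulated value lay above every sham value, with stimulated replicate 3 and sham replicate 3 nearest to each other. Itgb3 thus had a log2 fold change of 0.80 (SE 0.32, edgeR adjusted p = 0.668), and 0.56 without sham replicate 2. Itga2b, the platelet partner, had 15.03, 11.5 and 6.07 CPM in stimulated and 4.66, 8.12 and 10.2 CPM in sham libraries. Its log2 fold change was 0.51 (SE 0.41) from the gene table and -0.25 from summed transcript reads, and the summed level of 7 platelet markers was 15.4 to 24.9 CPM after stimulation against 20.8 to 50.1 CPM in sham.

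Itgb5, another partner of alpha v, had a log2 fold change of -0.43 (SE 0.39) from the gene table and -0.94 from summed transcript reads, and -0.04 without sham replicate 2. Itgb6, an epithelial chain that activates latent TGF-beta, had 20.6, 4.43 and 4.20 CPM in stimulated and 3.51, 8.73 and 2.37 CPM in sham libraries. The high value of stimulated replicate 1 came with 3 reads on a 236-base transcript, which took 79.9% of the gene's TPM there while 129 reads lay on the 4806-base coding transcript. In sham replicate 2, 1 read on the same short transcript took 61.7% of the TPM. The log2 fold change was 1.00 (SE 0.70) over all libraries, 0.55 from summed transcript reads and -0.10 without stimulated replicate 1. Itgb8, which also activates latent TGF-beta, had 4.20 to 7.35 CPM in stimulated and 2.44 to 6.92 CPM in sham libraries and a log2 fold change of 0.45 (SE 0.44), or 0.19 without sham replicate 2.

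Over the 19 non-leukocyte integrins 6 log2 fold changes were above and 13 below 0, with a median of -0.27, beside a median of -0.02 over all genes tested. Without sham replicate 2 the count was 10 above and 9 below and the median 0.07, beside 0.01 over all genes. Sham replicate 2 had the highest value of the 6 libraries in 12 of the 19, against 25.8% of all genes, and the lowest in 3, Itga4, Itgb3 and Itgb8, against 21.6% of all genes. Leaving it out brought 14 of the 19 log2 fold changes closer to 0, a count that was not made over all genes.

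**Figure D3:**
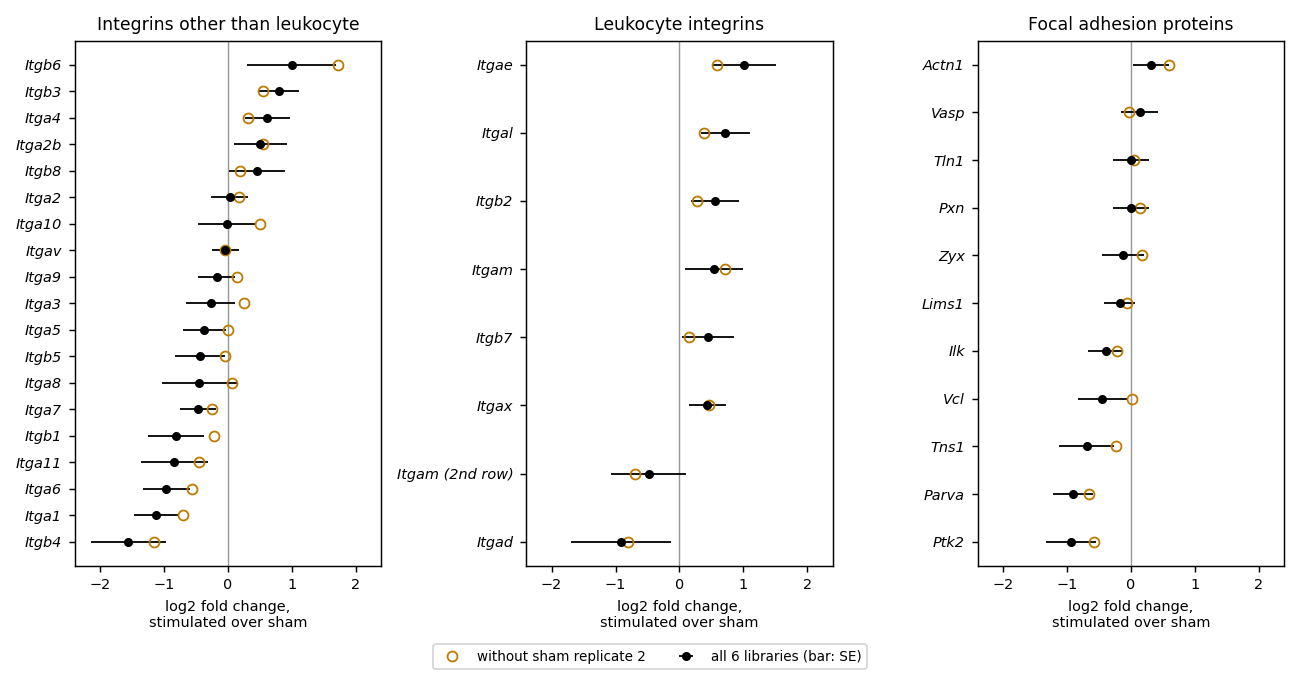
Log2 fold change of stimulated over sham for each row, with all 6 libraries (black points, bars the SE) and without sham replicate 2 (open orange circles), in panels for non-leukocyte integrins, leukocyte integrins and focal adhesion proteins. The open circles of Itgb1 and Vcl move to -0.21 and 0.02, whereas those of Itga1, Itgb4 and Parva remain below -0.6.

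The leukocyte integrins mostly had higher values after stimulation. Itgal, the alpha chain of LFA-1 (chromosome 7, 127296260 to 127335138), had 109, 136 and 95.3 CPM in stimulated and 81.4, 31.9 and 93.3 CPM in sham libraries. The groups did not overlap, though stimulated replicate 3 and sham replicate 3 were close. For Itgal the log2 fold change was 0.72 (SE 0.38, edgeR adjusted p = 0.778), and 0.38 without sham replicate 2. Itgae, the chain by which resident T cells hold E-cadherin, had 23.0, 21.1 and 15.4 CPM in stimulated and 14.3, 2.93 and 12.3 CPM in sham libraries, again without overlap. Its log2 fold change of 1.01 (SE 0.50, edgeR adjusted p = 0.755) was the highest of all 38 rows, and was 0.58 without sham replicate 2.

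Itgb2, the shared beta chain of LFA-1 and Mac-1, had 69.5, 121 and 81.3 CPM in stimulated and 57.4, 35.3 and 92.6 CPM in sham libraries. Sham replicate 3 exceeded 2 of the 3 stimulated libraries, and the log2 fold change of 0.55 (SE 0.37) was 0.27 without sham replicate 2 and 0.98 without sham replicate 3. Itgb7, the beta chain of gut-homing lymphocytes, had 53.6, 85.1 and 56.3 CPM in stimulated and 38.5, 25.5 and 78.7 CPM in sham libraries, with a log2 fold change of 0.45 (SE 0.41). It too was lowest in sham replicate 2, and had 0.15 without that library and 1.04 without sham replicate 3.

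The myeloid alpha chains Itgam, Itgax and Itgad lie close together on chromosome 7 and did not follow that library. Itgam, the alpha chain of Mac-1 on neutrophils and macrophages (128062640 to 128118491), had 111, 59.7 and 67.8 CPM in stimulated and 21.1, 68.2 and 75.3 CPM in sham libraries, with sham replicate 1 the lowest. Its log2 fold change was 0.54 (SE 0.46), 0.15 with sham replicate 1 left out, 0.26 with stimulated replicate 1 left out and 0.71 with sham replicate 2 left out. Itgax, the chain of dendritic cells and macrophages, had 25.7, 13.4 and 17.6 CPM in stimulated and 14.0, 14.2 and 13.7 CPM in sham libraries, and a log2 fold change of 0.44 (SE 0.29), or 0.20 without stimulated replicate 1. Itgad had 0.369 to 2.38 CPM in stimulated and 0.796 to 2.94 CPM in sham libraries. This is too low for its log2 fold change of -0.91 (SE 0.78), or -0.29 from summed transcript reads, to be placed. The other row with the symbol Itgam (ENSMUSG00000108596.1, 128062683 to 128128160) is named Gm49368 in GENCODE release 21 and overlaps Itgam on the same strand, so reads may be split between them. It had 0.760 to 1.83 CPM in stimulated and 0.941 to 3.10 CPM in sham libraries. Its log2 fold change was -0.48 (SE 0.59) from the gene table and 0.63 from summed transcript reads.

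Over the 8 leukocyte rows 6 log2 fold changes were above and 2 below 0, with a median of 0.49, or 0.33 without sham replicate 2. None had its highest value in sham replicate 2, and 4 had their lowest there (Itgb2, Itgal, Itgb7 and Itgae). In the same libraries the 5 pan-leukocyte markers summed to 2098 to 2324 CPM after stimulation against 535 to 2252 CPM in sham, 5 of 5 above 0 in log2 fold change. The 7 tested of 8 neutrophil markers were all above 0 and the list summed to 113 to 179 CPM after stimulation against 46.2 to 61.0 CPM in sham. The 8 macrophage markers, 1 of 8 above 0, summed to 388 to 592 CPM after stimulation against 274 to 937 CPM in sham. The part of these lists in the integrin values was not tested.

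**Figure D4:**
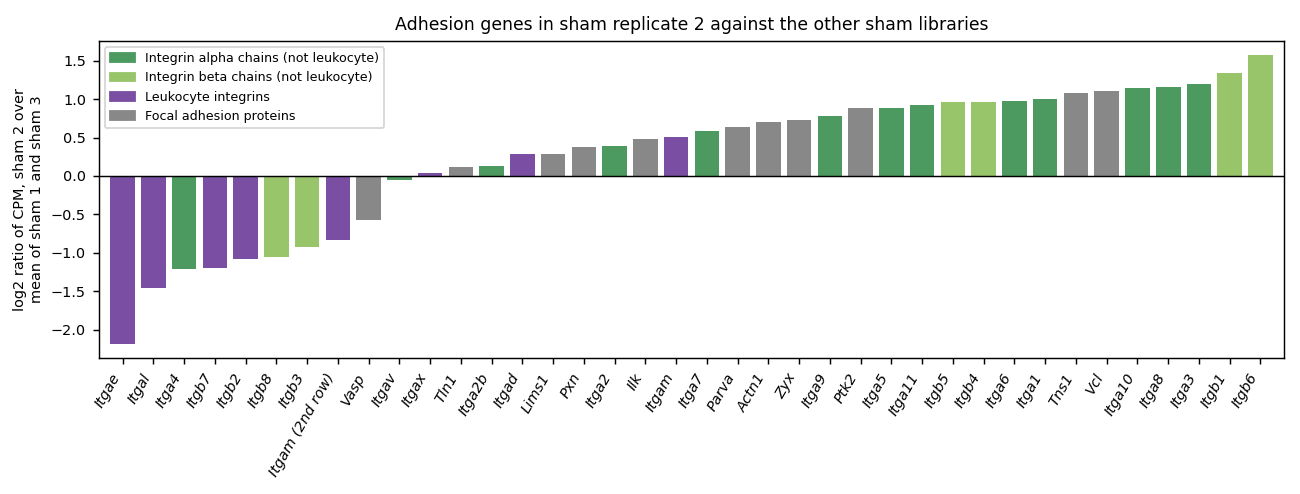
Log2 ratio of the CPM of sham replicate 2 to the mean CPM of sham replicates 1 and 3 for each row, coloured by class. The bars run between -2.19 for Itgae and 1.57 for Itgb6. Among the lowest are the leukocyte genes Itgae, Itgal, Itgb7 and Itgb2 and, from the non-leukocyte class, Itga4 at -1.21. Itgb1, Itga3 and Vcl are among the highest. The leukocyte genes Itgam, Itgad and Itgax have ratios of 0.50, 0.29 and 0.03. The Itgb6 bar came with 1 read on a 236-base transcript, which took 61.7% of the gene's TPM in sham replicate 2. Summed Itgb6 reads were 130, 93 and 65 in sham replicates 1, 2 and 3.

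Within each library, the split of integrin TPM between the classes was set side by side. Summed over all transcripts, leukocyte integrins had 7.82, 7.96 and 6.66 TPM in stimulated and 6.92, 6.07 and 6.58 TPM in sham libraries. The other integrins had 18.6, 14.7 and 22.6 TPM in stimulated and 27.1, 66.7 and 19.9 TPM in sham libraries, so the non-leukocyte sum differed more between libraries than the leukocyte sum. Leukocyte integrins took 29.6, 35.2 and 22.7% of all integrin TPM in stimulated and 20.3, 8.35 and 24.8% in sham libraries. Sham replicate 3 exceeded stimulated replicate 3, and the means were 29.2 ± 6.25% and 17.8 ± 8.51% (SD, n = 3 each; exact permutation test, two-sided p = 0.2). On coding transcripts of at least 1000 bases, a measure chosen after seeing the data, they took 31.6, 32.4 and 20.9% in stimulated and 14.6, 7.10 and 19.5% in sham libraries. There the groups did not overlap, and the means were 28.3 ± 6.44% and 13.7 ± 6.23% (SD, n = 3 each; exact permutation test, two-sided p = 0.1). The last p is the smallest that 3 libraries a group allow, and adjusted over these 2 shares (Benjamini-Hochberg, exact permutation) both p were 0.2. The ratio of Itgb2 to Itgb1 in long coding TPM was 0.383, 0.433 and 0.211 in stimulated and 0.119, 0.0482 and 0.214 in sham libraries. Stimulated replicate 3 was level with sham replicate 3 in this ratio.

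**Figure D5:**
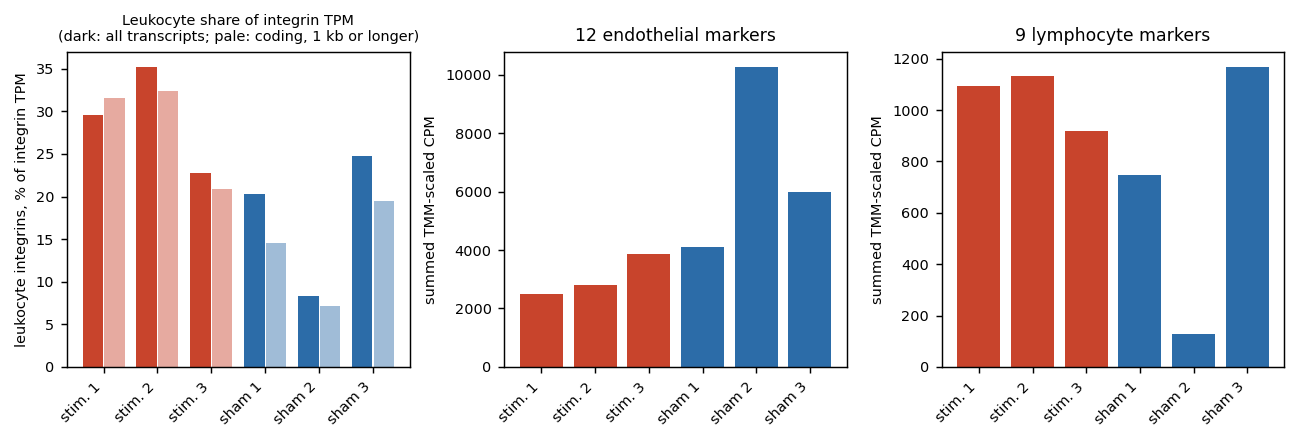
Leukocyte integrins as a percentage of integrin TPM in each library (left, dark bars over all transcripts and pale bars on coding transcripts of at least 1 kb), and the summed TMM-scaled CPM of 12 endothelial (middle) and 9 lymphocyte markers (right), with stimulated libraries in red left of sham libraries in blue. Sham replicate 2 has the lowest leukocyte share, 8.35%, the highest endothelial sum and the lowest lymphocyte sum.

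Of the 11 focal adhesion proteins 3 had log2 fold changes above and 8 below 0, with a median of -0.18, or -0.03 without sham replicate 2. Ptk2, the kinase that integrin clustering activates (chromosome 15, 73205102 to 73423280), had 68.9, 80.0 and 137 CPM in stimulated and 103, 262 and 182 CPM in sham libraries. Stimulated replicate 3 lay above sham replicate 1, and the log2 fold change was -0.94 (SE 0.40, edgeR adjusted p = 0.692), or -0.58 without sham replicate 2. Parva, the parvin of the ILK complex (chromosome 7, 112427505 to 112591692), had 20.9, 33.2 and 35.8 CPM in stimulated and 41.2, 73.7 and 53.9 CPM in sham libraries. Its groups did not overlap, and its log2 fold change was -0.91 (SE 0.31, edgeR adjusted p = 0.617), or -0.66 without sham replicate 2. Its partners in that complex, Ilk and Lims1, overlapped between the groups, with -0.40 (SE 0.27) for Ilk and -0.18 (SE 0.24) for Lims1.

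The proteins that load the adhesion with actin lay nearer to 0 or rested on 1 library. Vcl (chromosome 14, 20929398 to 21033676), which strengthens adhesions under force, had 87.0, 102 and 137 CPM in stimulated and 81.9, 229.8 and 133 CPM in sham libraries. Apart from sham replicate 2 the groups covered the same range, and the log2 fold change of -0.45 (SE 0.38) was 0.02 without it. Tns1 had 282, 368 and 561 CPM in stimulated and 337, 1008 and 619 CPM in sham libraries, with a log2 fold change of -0.70 (SE 0.43) that was -0.24 without sham replicate 2. Tln1 had 436, 492 and 458 CPM in stimulated and 335, 486 and 562 CPM in sham libraries, and its log2 fold change was 0.00 (SE 0.28).

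The remaining adaptors overlapped between the groups. Log2 fold changes were 0.31 (SE 0.28) for Actn1, the actin crosslinker alpha-actinin, 0.14 (SE 0.29) for Vasp, which promotes filament growth, -0.12 (SE 0.33) for the mechanosensitive LIM protein Zyx and -0.00 (SE 0.28) for the scaffold Pxn. Sham replicate 2 was the highest of the 6 libraries for 8 of the 11 focal adhesion genes and the lowest for Vasp. Counted over all 38 rows, leaving it out brought 26 log2 fold changes closer to 0, and the median of -0.15 became 0.06. The same count was not made over all genes, so the 26 has no background beside it.

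A further 67 genes of the integrin pathway were read from the same test, and 0 passed by edgeR. Their log2 fold changes were above 0 in 18 and below 0 in 49, with a median of -0.24, or -0.11 without sham replicate 2. At an unadjusted p under 0.05 there were 0 higher, against 2.64% of all genes, and 10 lower, or 14.9% against 4.41%. Of these 10, 1 had a log2 fold change of -2.23 from the gene table but 0.18 from summed transcript reads. The others stayed below 0 from summed transcript reads. The groups did not overlap in 4 higher and 4 lower genes of the 67, shares near the backgrounds of 6.16% and 5.88%. DESeq2 called 1 of the 67, beside 0.373% of all genes called higher and 0.771% called lower.

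Cav1, the caveolin that associates with beta 1 integrins and is abundant in endothelium, had 173, 208 and 345 CPM in stimulated and 405, 1030 and 530 CPM in sham libraries. The groups did not overlap, and the log2 fold change was -1.43 (SE 0.42, edgeR adjusted p = 0.543), or -0.94 without sham replicate 2. Other pathway genes with small p on the lower side were Tgfb1i1 (Hic-5) at -1.17, Cd81 at -1.03 and Cd151 at -0.98, both tetraspanins that bind laminin receptors, Enah at -0.93, Bcar1 (p130Cas) at -0.90 and Lims2 (PINCH2) at -1.06. Each had overlapping groups, and without sham replicate 2 their values ran from -0.80 for Cd81 to -0.44 for Bcar1.

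On the higher side Apbb1ip had the smallest p. Apbb1ip, the RIAM adaptor that brings talin to the membrane in leukocytes, had 96.0, 82.1 and 76.5 CPM in stimulated and 61.9, 28.8 and 63.2 CPM in sham libraries. The groups did not overlap, and the log2 fold change was 0.73 (SE 0.32, edgeR adjusted p = 0.709), or 0.45 without sham replicate 2. Parvg, the parvin of haematopoietic cells, had 33.4, 29.7 and 25.5 CPM in stimulated and 23.0, 15.3 and 24.8 CPM in sham libraries, with a log2 fold change of 0.49 (SE 0.27), or 0.31 without sham replicate 2. It stood opposite to Parva within the same family, although neither passed the test. Elmo1, a Rac activator partner, had 191, 185 and 189 CPM in stimulated and 137, 110 and 174 CPM in sham libraries, with a log2 fold change of 0.42 (SE 0.25), or 0.28 without sham replicate 2. Evl, Fyn, Tspan32, Lpxn and Ptk2b had log2 fold changes of 0.45, 0.36, 0.71, 0.47 and 0.51 with overlapping groups. Without sham replicate 2 these were 0.22 for Evl, 0.34 for Fyn, 0.31 for Tspan32, 0.06 for Lpxn and 0.06 for Ptk2b.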

How the data were processed

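Total RNA of 6 libraries, made with a stranded kit for very low input per the labels' protocols, was analysed. Salmon 0.8.2, edgeR under R 3.5.1, Trimmomatic 0.36, bcl2fastq 2.17.1.14 and the build GRCm38 stand in the submitters' processing notes; their settings were not given in the sources used here. Deposited by the authors were estimated counts for 53715 genes and, per the file headers, TPM and estimated counts for 135181 transcripts in each library. For 100% of 14096 genes with TPM above 0.1 in every library, the gene counts followed TPM times a gene and a library factor within 1%, so a few reads on a short transcript weigh heavily. CPM here is scaled by TMM.

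Estimated counts were rounded. Genes kept by filterByExpr (minimum count 10, total 15), 26559 in all, were tested with edgeR 4.0.16 (R 4.3.3, robust quasi-likelihood F test) over all 6 libraries, with Benjamini-Hochberg adjustment at 0.05. The SE is the log2 fold change divided by the square root of F. Transcript usage was tested with diffSplice in limma 3.58.1. TPM was summed per gene, over all transcripts and, chosen after seeing the data, over protein-coding transcripts of at least 1000 bases. The fit was repeated with counts summed from transcripts, RLE size factors, limma voom, DESeq2 1.42.0, a filter of 1 CPM in 3 libraries, no filter, a replicate block, and each library left out. The fits were tested on simulated data. The 2 shares of leukocyte integrins were compared by exact permutation, a test added after seeing the data.

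All 37 genes are named. Of the 67 pathway genes up to 8 per direction were named by smallest p, with mean log2 CPM of at least 1; 1 of these is not reported here. The genes and lists were chosen with earlier results of these data known. Of the gene identifiers, 99.8% matched GENCODE release 21 (GRCm38), the source of gene coordinates. Libraries of a group differed by a chi-square per gene of 26.5 to 97.4, so none was counted as a duplicate.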

Additional observations from a re-analysis of the deposited data

How the results depend on the processing

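No row was called under any alternative run, which covered all 38 rows except DESeq2, with 36. Over all genes, edgeR called 0 higher and 0 lower, against 74 and 153 by DESeq2 and 44 and 65 with no filter. RLE size factors gave 3 higher and summed transcripts 1 higher. Leaving out a library gave 0 to 1 higher, the 1 without stimulated replicate 3. Of the pathway genes 1 was called by DESeq2 and 1 with no filter. Transcript usage called 2 genes, 1 with a filter of 1 CPM and 1 to 3 with a library left out. The median of non-leukocyte integrins ran from -0.49 without sham replicate 1 to 0.07 without sham replicate 2, that of leukocyte integrins from 0.33 without sham replicate 2 to 0.91 without sham replicate 3. Of 702 comparisons of a gene with an alternative, 659 kept direction and call, 41 changed sign and 2 gained the call; 24 of the 38 rows never changed sign.

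From summed transcripts the log2 fold change was 0.26 for Itgav, -0.11 for Itga2, -0.25 for Itga2b, 0.63 for the other Itgam row and -0.11 for Tln1. Itgav had 0.01 with no filter. Itga10 had 0.03 by DESeq2, 0.16 by voom, 0.03 with RLE and 0.07 with no filter, and Pxn 0.02, 0.03, 0.02 and 0.05 under the same settings and 0.00 with the 1 CPM filter. With a library left out the ranges that crossed 0 were -0.34 to 0.50 for Itga10, -0.13 to 0.18 for Itga2, -0.55 to 0.25 for Itga3, -1.29 to 0.07 for Itga8, -0.39 to 0.13 for Itga9, -0.86 to 0.25 for the other Itgam row, -0.10 to 0.03 for Itgav, -0.10 to 1.73 for Itgb6, -0.22 to 0.14 for Pxn, -0.18 to 0.18 for Tln1, -0.03 to 0.42 for Vasp, -0.74 to 0.02 for Vcl and -0.37 to 0.17 for Zyx. Itga2b stayed at 0.24 to 0.79. Apart from the settings whose construction shows it (other transcripts weighed, fewer samples), the cause was not tested.

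Same-numbered libraries of the groups correlated in their deviations at 0.317, -0.161 and 0.128, and not every library correlated best with its own number. With 3 libraries a group these correlations cannot show whether the numbers pair the samples. The main fit did not treat them as pairs. With the replicate number as a block 0 genes were called in either direction, transcript usage called 2, the medians were -0.15, 0.59 and -0.19 for non-leukocyte integrins, leukocyte integrins and focal adhesion proteins, and Itga10 had 0.14 and Pxn 0.03. The common biological coefficient of variation was 0.4, and SEs of the 38 log2 fold changes ran from 0.21 for Itgav to 0.78 for Itgad.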
